A study of Mus musculus with 21 samples.

Results

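MIN6m9 cells given palmitate were compared with MIN6m9 cells given oleate, both fatty acids at 400 uM for 48 h. The samples titled for palmitate and for oleate in wild-type MIN6m9 were taken, 3 arrays each, which makes 6 of the 21 one-colour Agilent mouse expression arrays of the series. MIN6m9 is a subclone of MIN6, a mouse line that came from an insulinoma and makes and secretes insulin. The same experiment holds 3 arrays of untreated wild-type MIN6m9, whose harvest time no label states. They enter the same fit and are set beside the comparison. A separate experiment of 12 arrays used MIN6m9 with Fv2E-PERK, a PERK kinase that the small molecule AP20187 dimerises and so switches on. Of it, the arrays at 48 h of 1 nM AP20187, those of mock-treated Fv2E-PERK cells and those of mock-treated wild-type cells (2 each) are quoted below. Whether arrays of a group stem from separate cultures is not stated, and p-values therefore reflect array-to-array spread that may be only technical.

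Palmitate is a saturated fatty acid, and oleate is a longer one with a double bond. Beta cells exposed to much palmitate show stress of the endoplasmic reticulum (ER) and die, while oleate is tolerated better, and this is the usual reason to set one against the other at equal dose. Several gene programmes are known to answer to such lipids. The integrated stress response (ISR) begins with phosphorylation of eIF2alpha by kinases such as PERK, which lowers protein synthesis in general and lets the transcription factor ATF4 be made; ATF4 and its partner CHOP then raise genes of amino acid supply. The SREBP factors raise sterol and fatty acid synthesis when ER membranes are short of sterol, and unsaturated fatty acids restrain SREBP-1. PPAR receptors bind fatty acids and raise the genes that burn them.

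Levels are log2 of the processed spot signal minus the array's 75th percentile, so a level of 0 is a signal at that percentile, and differences are palmitate minus oleate on this log2 scale, with the standard error of the fit. The signal at the 75th percentile was 336 to 459 on the 9 fatty acid arrays against a local background of 18 to 19, and 49.8 to 53.5% of probes lay well above background. The number of arrays limits the precision. Within a group, log2 differences between a pair of arrays had an SD of 0.291 to 0.385, except for untreated replicate 2, where it was 0.688 and 0.665 against the other untreated arrays. Palmitate replicate 3 alone lay on slide 2, so a slide effect and this array cannot be told apart.

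The arrays carried the transcripts of a beta cell line. Of 10 defining beta cell markers, 9 or 10 were well above background on every array, and their median level was 5.56 to 5.64 with oleate and 5.31 to 5.37 with palmitate. Insulin did not differ measurably: Ins1 was 9.66, 9.5 and 9.60 with oleate and 9.62, 9.75 and 9.71 with palmitate, a difference of 0.11 with a 95% interval of -0.10 to 0.32. For Ins2 the difference was 0.16 with an interval of -0.10 to 0.43. In such bulk RNA, fewer cells of a type and less RNA per cell cannot be told apart.

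Muscle transcripts set the groups apart as well, and they were put aside. Heart genes were present with oleate, as in untreated cells, and lower with palmitate: the median level of 27 tested heart genes was -1.26, -1.06 and -1.15 with oleate, -4.18, -4.37 and -4.86 with palmitate, and -4.74 and -4.51 in mock-treated wild-type cells of the other experiment. These 27 of the 48 heart genes on the array passed the filter on dim entries, which they could do through the groups where they are high, so their levels are a description. Their summed level, on a linear scale where 1 is the 75th percentile, was 57.9 to 59.1 with oleate and 39.4 to 41.5 with palmitate. Tnni3, cardiac troponin I, was at least 43.6-fold lower with palmitate (mean levels of 0.33 with oleate and -6.88 with palmitate). Skeletal muscle genes split the palmitate arrays instead, with a summed level of 38.0 and 38.9 on replicates 1 and 2 and 8.52 on replicate 3, against 10.4 to 10.9 with oleate. Acta1, skeletal actin, was at -0.80, -0.70 and -0.72 with oleate and at 2.26, 2.40 and -1.12 with palmitate. Haemoglobin genes were lower on palmitate replicates 1 and 2 than on replicate 3 (Hba-a1 at -2.76, -2.74 and -1.27, against -0.56, -0.95 and -0.44 with oleate). On replicate 3, Fabp4, a lipid chaperone of fat cells, stood at 1.46 against -3.78 and -3.07 on the other palmitate arrays. The part of these transcripts in the results that follow was not tested. Genes of the muscle lists were left out of the named genes, a gene lower with palmitate was named only if it was well above background in both mock-treated wild-type samples, and counts are also given with palmitate replicate 3 alone against oleate.

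**Figure D1:**
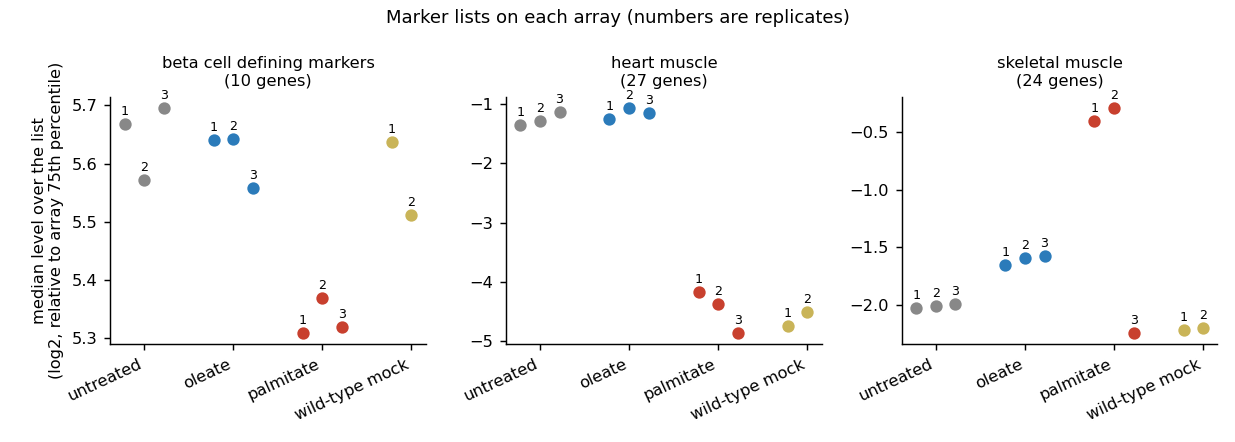
Median level (log2 of the signal minus the array's 75th percentile) of the tested genes of 3 marker lists on each array, 1 point per array, labelled by replicate number, with mock-treated wild-type cells of the other experiment at the right. The vertical axis differs between panels. Heart genes sit between -1.35 and -1.06 on the untreated and oleate arrays and between -4.86 and -4.18 on the palmitate arrays, skeletal muscle genes are high on palmitate replicates 1 and 2 only, and beta cell markers lie between 5.31 and 5.70 on all 9 fatty acid arrays.

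Of 21281 entries tested with limma and adjusted by the Benjamini-Hochberg method, 2926 (13.7%) passed an adjusted p of 0.05 for palmitate against oleate, 1591 (7.48%) higher with palmitate and 1335 (6.27%) lower. Outside the muscle lists 2895 of 21179 passed (13.7%), 1581 higher (7.46%) and 1314 lower (6.2%), and the median difference of all entries was -0.0017. Differences of at least 2-fold were mostly upward: 163 entries were that much higher and 39 that much lower, of which 109 and 21 were well above background in both mock-treated wild-type samples. The 3 arrays of each acid did not overlap for 8224 entries (38.6%). Oleate itself moved little against untreated cells, with 0.334% of entries higher and 0.503% lower, against 7.42% and 12.6% for palmitate. These comparisons share the untreated arrays, and each shares treated arrays with the comparison of the acids. The split between higher and lower follows the scaling: 54.4% of the calls were higher with the 75th percentile, 93.3% of 1193 calls with spike-in scaling, which moves the median of all entries by 0.21, and 35.9% of 409 calls in the authors' series matrix values, which move it by -0.29. The number called fell below the main count by over 1.5 times without oleate replicate 1 (1398), oleate replicate 2 (1439), oleate replicate 3 (1867) or palmitate replicate 1 (1795), and was 1406 with palmitate replicate 3 alone. Of 218 named or listed genes compared in the series matrix, 108 kept their direction but lost their call there, and another 5 changed sign. Among genes given below, Asns (0.90), Lars (0.61), Iars (0.46), Acsl3 (1.02), Lpin1 (0.48), Plin2 (0.38), Relb (0.50), Hrk (1.58), Fads3 (1.62), Car3 (4.56), Col14a1 (2.66), Srebf1 (0.36), Atf6 (0.33), Glp1r (-0.44), Slc30a8 (-0.37), Ptgds (-1.12) and Il4 (-0.82) kept their direction but not their call with palmitate replicate 3 alone. The same held for Hspa5 (0.29), Cpt1a (0.18), Lpin2 (0.21), Ugcg (-0.28), Pdx1 (-0.15), Nkx6-1 (-0.22), Fas (1.61), Sqstm1 (0.23) and Atg3 (0.22). It also held for Kif20a (-0.28), Fen1 (-0.16), Rrm2 (-0.2), Cdc45 (-0.32), Ldhb (-0.16), Myc (0.5), Cpne6 (-0.63) and Vmn1r48 (-1.67), and for Sel1l, Derl1 and Calr.

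ISR genes were higher with palmitate than with oleate as a group. Of 22 tested, 17 were higher and 0 lower, with a median difference of 0.67 (16 higher with spike-in scaling, 15 with palmitate replicate 3 alone, 1 in the series matrix, where the median was 0.35). Against untreated cells the median was 0.79 for palmitate and 0.04 for oleate, and 0 of the 22 passed for oleate in either direction, where 0.334% and 0.503% of all entries passed. Many of these genes are known targets of ATF4 and CHOP, which bind a CCAAT/enhancer binding protein and activating transcription factor response element, or CARE. The letters TGATGNAA, searched on both strands in the 250 bases before each RefSeq start (mouse build GRCm38.p6), stood in 6 of the 21 ISR genes with a promoter in the table (28.6%), in 4 of 14 amino acid enzymes (28.6%), in 3 of 13 cytosolic tRNA synthetases (23.1%) and in 1 of 8 amino acid transporters (12.5%), against 1056 of 27025 genes in all (3.91%). The stretches below are shown because they let a reader see the element in genes that differ between the acids and in 1 that does not, with the match in capitals, in reverse complement where the element lies on the other strand. A match is only a match of letters.
Atf3, chr1:191183416-191183463 (-): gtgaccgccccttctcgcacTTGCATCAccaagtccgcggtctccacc
Chac1, chr2:119351029-119351076 (+): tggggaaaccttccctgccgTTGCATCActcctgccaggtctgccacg
Nupr1, chr7:126625553-126625600 (-): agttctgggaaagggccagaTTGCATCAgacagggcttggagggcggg
Jdp2, chr12:85599368-85599405 (+): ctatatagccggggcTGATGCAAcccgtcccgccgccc
Vldlr, chr19:27216800-27216847 (+): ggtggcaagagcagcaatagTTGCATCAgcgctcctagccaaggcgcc
Slc7a11, chr3:50443638-50443694 (-): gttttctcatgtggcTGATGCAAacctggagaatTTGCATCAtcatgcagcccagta
Asns, chr6:7693210-7693247 (-): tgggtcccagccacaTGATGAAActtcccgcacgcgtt
Tars, chr15:11399659-11399680 (-): agtcccgTTGCATCAgctggtt

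Atf3, a stress-induced transcription factor, differed most among the ISR genes measured on both sides. Its level was -1.55, -1.29 and -1.51 with oleate, -1.56, -1.46 and -1.51 without a fatty acid, and 1.22, 1.13 and 0.97 with palmitate. The oleate and untreated arrays overlapped, and every palmitate array lay above both. The difference between the acids was 2.56 ± 0.09, or 5.89-fold (limma adjusted p = 4e-06). Trib3, a pseudokinase that CHOP raises and that in turn restrains it, was at 4.83, 4.77 and 4.59 with oleate and 5.91, 6.10 and 5.94 with palmitate, a difference of 1.25 ± 0.08. Nupr1, a stress-induced chromatin protein, was at 5.08, 5.05 and 5.19 against 6.36, 6.37 and 6.29, a difference of 1.23 ± 0.07. Ppp1r15a, the GADD34 subunit that leads the phosphatase back to eIF2alpha, was higher by 1.22 ± 0.07 without overlap of the arrays. Fgf21, a hormone that stressed cells secrete, was well above background on no oleate array and all palmitate arrays and was at least 2.25-fold higher (adjusted p = 0.0015; mean levels of -6.92 and -3.88).

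The transcription factors at the centre of the response were higher too. Ddit3, which encodes CHOP, was at 2.84, 2.93 and 2.88 with oleate and 3.77, 3.77 and 3.56 with palmitate, a difference of 0.82 ± 0.07. For Atf4 the difference was 0.52 ± 0.08 and for its relative Atf5 0.44 ± 0.07. Both are known to be controlled largely in translation, which an array does not read. Chac1, which breaks down glutathione, had a difference of 1.1 ± 0.08, Eif4ebp1, a brake on cap-dependent translation, 1.09 ± 0.07, and Jdp2, a repressor of the same bZIP family, 0.96 ± 0.11. A CARE did not go with a difference in each case: Vldlr, the very low density lipoprotein receptor whose element is shown above, was at 4.82, 4.91 and 4.72 with oleate and 4.96, 5.09 and 4.87 with palmitate, a difference of 0.16 with a 95% interval of -0.05 to 0.37. The other members that did not pass were Ddit4 at 0.00, Gadd45a at 0.00, Gdf15 at -0.08 and Vegfa at 0.18. With AP20187 for 48 h, 15 of the 22 were higher and 4 lower than in mock-treated Fv2E-PERK cells (27.2% and 34.6% of all entries there), with a median of 1.39. The arrays of these groups lay on different slides, so slide and AP20187 cannot be told apart. With it, Atf3 was higher by 6.52, Trib3 by 3.28 and Nupr1 by 1.59.

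Genes of amino acid supply followed the same order. Of 11 tested amino acid transporters 8 were higher with palmitate and 0 lower (median 0.58; 8 with spike-in scaling, 8 with palmitate replicate 3 alone and 4 in the series matrix, where the median was 0.29). Of 15 enzymes of amino acid and one-carbon metabolism 12 were higher and 0 lower (median 0.61; 11, 8 and 1, and 0.32). Slc7a3, a carrier of cationic amino acids, was at 3.19, 2.98 and 3.0 with oleate and 5.15, 5.24 and 5.29 with palmitate, a difference of 2.17 ± 0.08, or 4.51-fold. Slc6a9, the glycine transporter, was at 1.90, 1.85 and 1.86 against 3.43, 3.50 and 3.45, higher by 1.59 ± 0.05. The groups did not overlap for either, and the oleate levels lay within 0.1 of the untreated ones for both. Slc1a5, a glutamine carrier, was higher by 1.66 ± 0.10. Slc7a11, which brings in cystine and carries the pair of elements shown above, was well above background on no oleate and all palmitate arrays and at least 5.19-fold higher (adjusted p = 0.00077; mean levels of -5.64 and -2.68). Slc7a1, another cationic carrier, had a difference of 0.61 ± 0.07.

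Cth, which makes cysteine from cystathionine, stood out because both acids moved it, in opposite directions. Its level was -0.15, -0.15 and -0.16 without a fatty acid, -0.86, -0.90 and -0.80 with oleate and 2.21, 2.08 and 2.18 with palmitate. All oleate arrays lay below and all palmitate arrays above the untreated ones. The difference between the acids was 3.01 ± 0.05, or 8.05-fold (adjusted p = 1.1e-07), made of 2.31 ± 0.05 for palmitate and -0.70 ± 0.05 for oleate against untreated (adjusted p = 8.5e-07 and 0.0023). The serine pathway differed without such a fall: Phgdh, its first enzyme, was at 4.0, 3.88 and 4.04 with oleate and 5.17, 5.20 and 5.17 with palmitate (1.21 ± 0.06), and Psph, its last, was higher by 1.27 ± 0.06. Shmt2, the mitochondrial enzyme that splits serine into glycine and a one-carbon unit, was higher by 1.13 ± 0.09, and Aldh1l2, which oxidises that unit in mitochondria, by 1.21 ± 0.07. Asns, asparagine synthetase, was at 6.55, 6.04 and 6.42 with oleate and 6.97, 7.08 and 7.23 with palmitate, a difference of 0.76 ± 0.13. Psat1, the enzyme between Phgdh and Psph, had a difference of 0.50 that did not pass, because untreated replicate 2 widened its error. Without that array the difference was 0.50 with an adjusted p of 0.0017.

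Cytosolic aminoacyl-tRNA synthetases, which load amino acids onto tRNA, were higher with palmitate in 11 of 20 cases and lower in 0, with a median of 0.32 (8 higher with spike-in scaling, 5 with palmitate replicate 3 alone, 0 in the series matrix, where the median was 0.03). Nars, for asparagine, was at 3.11, 3.07 and 3.05 with oleate and 3.72, 3.74 and 3.74 with palmitate, the largest difference of the family at 0.66 ± 0.07. Lars, Tars, Mars1 and Iars, for leucine, threonine, methionine and isoleucine, had differences of 0.61, 0.54, 0.53 and 0.50. Against untreated cells the median was 0.34 for palmitate and -0.01 for oleate.

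**Figure D2:**
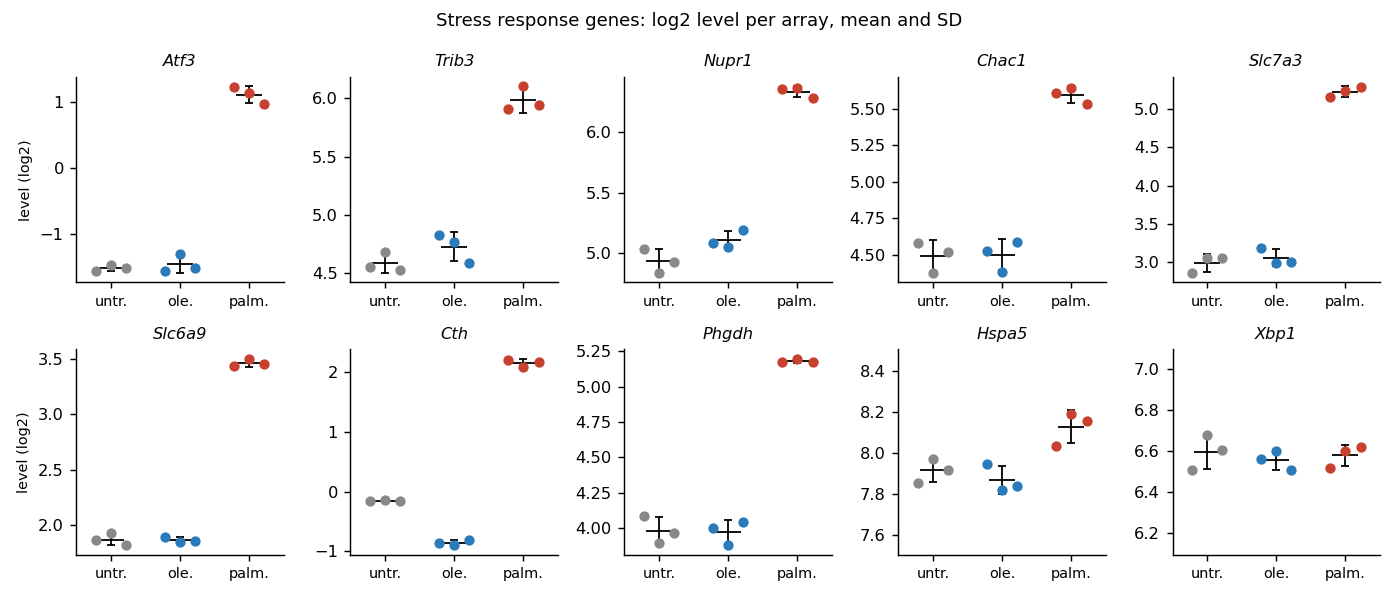
Level on each array (log2 of the signal minus the array's 75th percentile) of 10 genes of the ISR, of amino acid supply and of ER folding, 1 point per array in untreated, oleate and palmitate samples, with a line at each group's mean and bars of 1 SD over 3 arrays. The vertical axis differs between panels and does not start at 0. The 3 palmitate arrays lie above the oleate arrays for Atf3, Trib3, Nupr1, Chac1, Slc7a3, Slc6a9, Cth and Phgdh, oleate lies below untreated for Cth, and for Xbp1 the groups overlap.

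Chaperones of the ER showed small differences beside those of the ISR. Of 27 genes of ER folding and ER-associated degradation 9 were higher with palmitate and 0 lower, and the median was 0.14, which turned to -0.15 in the series matrix. 3 were higher with spike-in scaling, 1 with palmitate replicate 3 alone and 0 in the series matrix, and 3 without oleate replicate 1, oleate replicate 2 or palmitate replicate 2 and 4 without palmitate replicate 3. Herpud1, which recruits the degradation machinery and is a target of both ATF4 and the ER stress factors, led the called members at 0.42 ± 0.06 (4.41, 4.37 and 4.26 with oleate; 4.68, 4.79 and 4.84 with palmitate). Atf6, an ER stress sensor, was higher by 0.39 ± 0.05 and Sel1l, Derl1 and Calr by 0.37, 0.34 and 0.32. All but Herpud1 lost their call with palmitate replicate 3 alone (Atf6 at 0.33, Sel1l at 0.43, Derl1 at 0.21, Calr at 0.34). Sel1l was also lost without any 1 oleate replicate or palmitate replicates 2 or 3 (0.32 to 0.39), and Calr without oleate replicates 1 or 2 or palmitate replicates 2 or 3 (0.28 to 0.32). Hspa5, the main ER chaperone BiP, was at 7.95, 7.82 and 7.84 with oleate and 8.03, 8.19 and 8.16 with palmitate. Its difference of 0.26 ± 0.06 (adjusted p = 0.032) was no longer called without untreated replicate 3, any oleate replicate, or palmitate replicates 2 or 3 (0.23 to 0.30, adjusted p = 0.053 to 0.11), and was -0.03 in the series matrix. Xbp1, the factor spliced by IRE1, did not pass: 6.56, 6.60 and 6.51 with oleate and 6.52, 6.60 and 6.62 with palmitate, a difference of 0.02 with a 95% interval of -0.11 to 0.16.

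The ER stress element, spelled CCAAT, 9 bases of any kind and CCACG, and searched in the same way, stood in 9 of the 23 ER genes with a promoter in the table (39.1%), against 35 of 27025 genes in all (0.13%). It is printed here for Hspa5 and Calr, which were called with the differences above, and for Canx and Pdia6, which were not. Canx, a lectin chaperone, had a difference of 0.03 and a 95% interval of -0.18 to 0.24. Pdia6, a disulfide isomerase, had a difference of 0.09 and an interval of -0.07 to 0.26. As a median over its probes Pdia6 was at 0.18 and called.
Hspa5, chr2:34772010-34772058 (+): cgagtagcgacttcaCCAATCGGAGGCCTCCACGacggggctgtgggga
Calr, chr8:84847060-84847108 (-): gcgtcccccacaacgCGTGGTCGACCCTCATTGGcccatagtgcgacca
Canx, chr11:50325785-50325833 (-): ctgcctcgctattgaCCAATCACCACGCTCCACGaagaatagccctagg
Pdia6, chr12:17266476-17266524 (+): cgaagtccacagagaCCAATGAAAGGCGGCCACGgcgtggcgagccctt

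Sterol genes were higher with palmitate, and part of that distance lay on the oleate side. Of 24 genes of sterol synthesis and uptake 17 were higher with palmitate and 0 lower, with a median of 0.60 (17 with spike-in scaling, 14 with palmitate replicate 3 alone and 2 in the series matrix, where the median was 0.32). Against untreated cells 18 were higher and 0 lower with palmitate (median 0.48), and 0 were higher and 4 lower with oleate (median -0.19). Fdps, farnesyl diphosphate synthase, was at 5.26, 5.40 and 5.44 untreated, 4.84, 4.69 and 4.89 with oleate, and 6.07, 6.17 and 6.18 with palmitate. Its oleate arrays all lay below and its palmitate arrays all above the untreated ones, with a difference between the acids of 1.34 ± 0.07, or 2.53-fold. Mvd and Tm7sf2, a mevalonate pathway enzyme and a sterol reductase, were also lower with oleate than untreated, by 0.35 and 0.37 on the log2 scale.

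Further sterol genes also differed between the acids. Msmo1, the sterol methyl oxidase, was at 4.76, 4.58 and 4.67 with oleate and 5.73, 5.85 and 5.78 with palmitate (1.12 ± 0.08). Dhcr7, the last enzyme of cholesterol synthesis, was at 0.06, -0.05 and 0.15 against 1.0, 1.18 and 1.09 (1.03 ± 0.07), and Nsdhl, a sterol dehydrogenase, was higher by 1.01 ± 0.08. Insig1, which holds SREBP in the ER and is itself an SREBP target, had a difference of 0.99, and Cyp51, the lanosterol demethylase, of 0.98. Hmgcs1, an early enzyme of the mevalonate pathway, had a difference of 0.81 ± 0.08. Its promoter was the only 1 of the 16 in the table (6.25%) to hold the sterol response letters TCACNCCAC, which 331 of 27025 genes hold (1.22%), and is shown for that reason.
Hmgcs1, chr13:119690194-119690242 (+): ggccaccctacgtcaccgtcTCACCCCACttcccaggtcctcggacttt
Srebf2, the sterol-sensing SREBP, differed by 0.22 and did not pass. With AP20187 for 48 h the median of the sterol genes was -0.34, with 2 higher and 12 lower than mock. Of all entries there 27.2% were higher and 34.6% lower, and slide and AP20187 cannot be told apart.

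In fatty acid synthesis and desaturation the largest difference was at Scd1. Scd1, the stearoyl-CoA desaturase that makes oleate from a saturated chain, was at 2.66, 2.60 and 2.63 in untreated cells, 1.14, 0.92 and 1.06 with oleate and 3.58, 3.62 and 3.84 with palmitate. Oleate lay below and palmitate above all untreated arrays, -1.59 ± 0.08 and 1.05 ± 0.08 away (adjusted p = 0.00069 and 0.00022), which left the acids 2.64 ± 0.08, or 6.24-fold, apart (adjusted p = 3.1e-06). Scd2, its second isoform, was at 7.58, 7.69 and 7.48 untreated, 6.91, 6.86 and 6.75 with oleate, and 7.81, 7.96 and 7.96 with palmitate, a difference of 1.07 ± 0.08. Elovl6, which elongates palmitate, showed the order again at 1.72, 1.64 and 1.66 with oleate and 2.31, 2.36 and 2.55 with palmitate (0.73 ± 0.07), oleate being 0.43 below untreated. Fads3, a desaturase-like gene, was higher by 1.65 ± 0.30, and Thrsp, a lipogenic regulator, by 1.06 ± 0.22, which was 1.02 and 1.06 without oleate replicate 1 and without oleate replicate 2 and then not called (adjusted p = 0.069 and 0.064).

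Of 19 genes of this group 13 were higher with palmitate and 0 lower, with a median of 0.46 (12 with spike-in scaling, 8 with palmitate replicate 3 alone and 2 in the series matrix, where the median was 0.17). Oleate against untreated gave 0 higher and 4 lower, and palmitate 11 higher and 1 lower. Srebf1, the lipogenic SREBP, was at 0.98, 0.95 and 1.04 with oleate, 1.35, 1.41 and 1.48 untreated and 1.5, 1.5 and 1.34 with palmitate. Its difference of 0.46 ± 0.06 thus lay on the oleate side, palmitate being 0.03 ± 0.06 from untreated. Fasn, fatty acid synthase, had a difference of 0.54 and Fads2, the delta-6 desaturase, of 0.61. The enzymes that supply the pathway did not pass: Acly, which makes cytosolic acetyl-CoA, differed by -0.15 and Acaca, acetyl-CoA carboxylase, by 0.04. With AP20187 for 48 h Scd1 was at -0.91 and Scd2 at -1.64 against mock, both lower, as was the median of the group at -0.55 (4 higher and 13 lower). Of all entries there 27.2% were higher and 34.6% lower, and slide and AP20187 cannot be told apart.

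Some genes of mitochondrial fatty acid oxidation, such as Cpt1a and Acaa2, separated either acid from untreated cells more than they separated the acids. Of 20 tested 1 was higher and 1 lower with palmitate than with oleate, a share of 10% against 13.7% of all entries, and the median was -0.08, which was 0.13 with spike-in scaling. 0 were higher and 1 lower with palmitate replicate 3 alone, and 0 passed in the series matrix. Against untreated cells 7 were higher and 1 lower with palmitate, and 5 higher and 0 lower with oleate. Over all entries 7.42% and 0.334% were higher. The list medians against untreated were 0.04 with palmitate and 0.17 with oleate. Cpt1a, which admits fatty acids to mitochondria, was at 2.0, 1.94 and 1.87 untreated, 3.43, 3.46 and 3.41 with oleate and 3.62, 3.68 and 3.62 with palmitate. It was 1.5 ± 0.05 above untreated with oleate and 1.70 ± 0.05 with palmitate, and the difference of 0.20 ± 0.05 between the acids (adjusted p = 0.034) was lost without any 1 of the 6 arrays (0.18 to 0.22, adjusted p = 0.063 to 0.11), was -0.07 in the series matrix, and was 0.04 at a second probe. Acaa2, the last step of the cycle, was at 3.80, 3.86 and 3.81 with oleate and 3.82, 3.85 and 4.01 with palmitate, overlapping. Its difference was 0.07 with a 95% interval of -0.07 to 0.21, while each acid was above untreated (0.95 and 1.02). Slc25a20, the carnitine carrier, differed by 0.20 (interval 0.07 to 0.33) and Acadl, the long-chain dehydrogenase, by 0.19 (0.06 to 0.33), and neither passed. Hadh, the short-chain hydroxyacyl-CoA dehydrogenase that also restrains insulin release, went the other way: 4.01, 4.12 and 3.95 with oleate and 3.39, 3.38 and 3.4 with palmitate, a difference of -0.64 ± 0.06 that was -0.43 and not called with spike-in scaling.

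Among other fuel and PPAR genes 2 of 12 were higher with palmitate and 1 lower, 25% against 13.7% of all entries (median 0.05, -0.24 in the series matrix). These counts were 3 and 0 with palmitate replicate 3 alone, 0 and 1 in the series matrix, 1 and 0 without oleate replicates 1 or 2, and 1 and 2 without palmitate replicate 3. Pparg, the fat cell PPAR, was at 1.65, 1.62 and 1.66 with oleate and 2.17, 2.25 and 2.31 with palmitate, higher by 0.60 ± 0.05. Ucp2, an uncoupling protein, was above untreated with both acids (0.74 with oleate, 1.05 with palmitate) and 0.31 apart (interval 0.11 to 0.51), which did not pass. Angptl4, a PPAR target, was at -4.43, -4.28 and -2.85 with palmitate, so that 1 array carried its difference of 0.38. In peroxisomal oxidation, 1 of 16 was higher and 1 lower, 12.5% against 13.7% of all entries, and the median was -0.05 (0.16 with spike-in scaling). With palmitate replicate 3 alone and in the series matrix 1 was higher and 0 lower. The higher one was Acox2, the branched-chain acyl-CoA oxidase, well above background on no oleate or untreated array and at -0.16, -0.15 and -0.21 on all palmitate arrays, which puts it at least 25.6-fold higher (adjusted p = 0.00093; mean level of -5.81 with oleate).

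Of the tested genes of lipid storage 23.8% passed and of those of sphingolipids 18.2%, against 13.7% of all entries. Of 21 lipid droplet and glycerolipid genes 5 were higher with palmitate and 0 lower (median 0.18, -0.07 in the series matrix; 2 with palmitate replicate 3 alone, 1 higher and 1 lower in the series matrix). Plin2, the main droplet coat of beta cells, was at 2.49, 2.41 and 2.29 untreated, 2.80, 2.74 and 2.72 with oleate and 3.11, 3.21 and 3.13 with palmitate, so that palmitate exceeded oleate by 0.40 ± 0.06. The acyl-CoA synthetases Acsl3 and Acsl4 were higher by 0.92 ± 0.14 and 0.62 ± 0.10, and the phosphatidate phosphatases Lpin1 and Lpin2 by 0.48 ± 0.07 and 0.37 ± 0.08, the last lost without any oleate replicate or without palmitate replicates 1 or 2 (0.32 to 0.39). Dgat2, which makes triglyceride, was at 2.92, 3.58 and 3.56 with oleate and 3.91, 3.93 and 3.87 with palmitate and did not pass (0.55). Without oleate replicate 1 the difference was 0.34 with an adjusted p of 0.014.

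Of 22 ceramide and sphingolipid genes 0 were higher with palmitate and 4 lower, with a median of -0.03, which was 0.17 with spike-in scaling, where 0 passed, as in the series matrix. With palmitate replicate 3 alone the lower members were not all the same genes: Ugcg (-0.28) dropped out and Sptlc1 (-0.49) came in. Kdsr, the second enzyme of ceramide synthesis, was at 1.07, 1.31 and 1.21 untreated, 1.70, 1.74 and 1.67 with oleate and 1.09, 1.18 and 1.08 with palmitate. Its difference of -0.59 ± 0.07 came from the oleate side (0.51 ± 0.07 above untreated, against -0.08 ± 0.07 for palmitate). Cers4, a ceramide synthase of long chains, was at 2.51 on each oleate array and at 1.84, 1.84 and 1.91 with palmitate, -0.64 ± 0.05, with oleate above and palmitate below untreated by 0.34 and -0.31. Smpd3, a neutral sphingomyelinase, was lower by 0.33 on the log2 scale, and Ugcg, which makes glucosylceramide, had a difference of -0.23 that was lost without any 1 of the 6 arrays (-0.20 to -0.26). The first enzyme is serine palmitoyltransferase, which takes palmitoyl-CoA as its substrate. Neither of its subunits passed in the main fit (Sptlc1 at -0.25, Sptlc2 at 0.06). Sphk1, which phosphorylates sphingosine, was above untreated with both acids (0.99 and 0.86) and differed between them by -0.13 (interval -0.26 to -0.01), which did not pass.

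**Figure D3:**
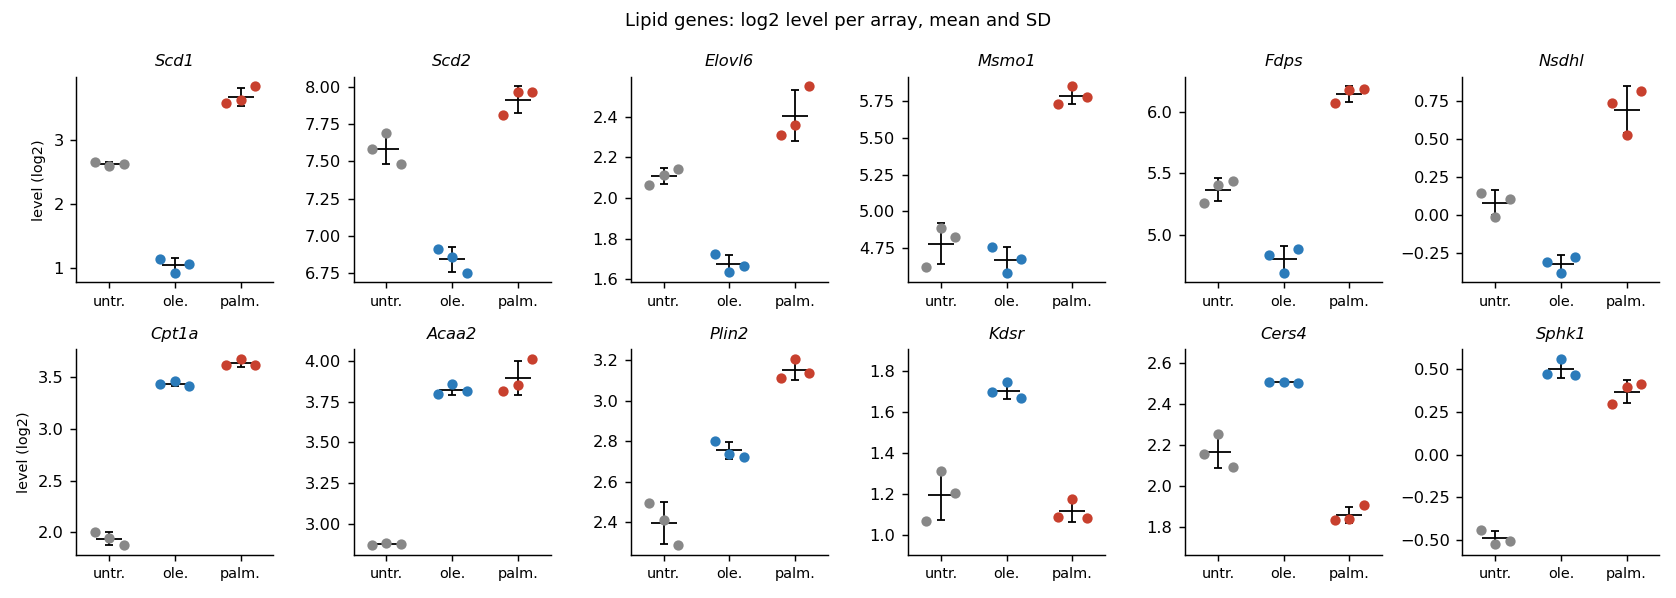
Level on each array (log2 of the signal minus the array's 75th percentile) of 12 lipid genes, 1 point per array in untreated, oleate and palmitate samples, with a line at each group's mean and bars of 1 SD over 3 arrays. The vertical axis differs between panels and does not start at 0. Scd1, Scd2, Elovl6 and Fdps have oleate below and palmitate above untreated, Cpt1a, Acaa2 and Sphk1 are above untreated with both acids, and Kdsr and Cers4 are highest with oleate.

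Beta cell genes were lower with palmitate where they differed, by amounts that the scaling can move. Of 31 genes of beta cell identity and insulin secretion 0 were higher and 8 lower (6.27% of all entries were lower), with a median of -0.13 that was 0.07 with spike-in scaling, where 1 was lower, and -0.42 in the series matrix, where 2 were. 4 were lower with palmitate replicate 3 alone and 5 without any 1 oleate replicate. Slc2a2, the glucose transporter GLUT2, differed most, at -2.54, -2.83 and -3.01 with oleate and -4.54, -4.28 and -5.13 with palmitate. Its difference was -1.86 ± 0.21, or 3.63-fold lower (adjusted p = 0.0015), and it was dim, with 2 of 3 palmitate arrays well above background. Trpm5, a cation channel of the secretory response, was at 2.77, 2.76 and 2.72 against 2.06, 2.05 and 1.78 (-0.79 ± 0.09), and Glp1r, the GLP-1 receptor, was lower by 0.47 ± 0.07 on the log2 scale. Ero1b, the disulfide oxidase of beta cells, was lower by 0.45 ± 0.07 and Slc30a8, the granule zinc transporter, by 0.36 ± 0.06; of these 5 genes Slc2a2 kept its call with spike-in scaling.

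Transcription factors of identity differed by less. Pdx1 was at 3.86, 3.90 and 3.91 with oleate and 3.60, 3.66 and 3.74 with palmitate, -0.22 ± 0.06 (adjusted p = 0.042), a call lost without untreated replicates 1 or 3, any oleate replicate, or palmitate replicates 1 or 2 (-0.19 to -0.24). Nkx6-1 had -0.20 ± 0.05 (adjusted p = 0.045), lost without untreated replicate 1, any oleate replicate or any palmitate replicate (-0.19 to -0.22), and 0.00 with spike-in scaling. Mafa did not pass, at -0.13 (interval -0.26 to -0.00). Among the other islet hormones Ppy, pancreatic polypeptide, was higher with palmitate by 1.14 ± 0.09 (-1.11, -1.06 and -1.25 against -0.18, 0.09 and 0.11), Gcg, glucagon, had a difference of -0.34 ± 0.05, and Sst, somatostatin, of -0.02.

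Inflammatory genes held some of the largest differences, in a comparison where 7.48% of all entries were higher and 6.27% lower. Of 15 NF-kB, cytokine and acute-phase genes 7 were higher with palmitate and 1 lower (median 0.29, -0.01 in the series matrix; 6 higher with spike-in scaling, 4 with palmitate replicate 3 alone, 4 in the series matrix). Lcn2, an iron-binding acute-phase protein, was at -2.71, -3.89 and -2.60 with oleate and 0.35, 0.16 and 0.15 with palmitate, higher by 3.29 ± 0.30, or 9.79-fold. Saa3, serum amyloid A3, was well above background on no oleate and all palmitate arrays and at least 14.1-fold higher (adjusted p = 1.5e-05; mean levels of -5.18 and -1.0). Ptgs2, the inducible cyclooxygenase, was likewise at least 4.32-fold higher (adjusted p = 2.5e-05; mean levels of -6.59 and -2.94), and Cxcl10, an interferon-induced chemokine, at least 1.96-fold (adjusted p = 0.0028; -6.23 and -4.08). Saa3, Ptgs2 and Cxcl10 did not pass the filter on dim entries through oleate, so their calls are a description. When all 6 arrays had to be well above background, 4 genes of the list were higher and 1 lower. Relb was higher by 0.58 ± 0.08. Tnfaip3, the A20 brake on NF-kB, was the lower one, at -0.54 ± 0.11. 0 of the list were lower with spike-in scaling, with palmitate replicate 3 alone, or without oleate replicates 1 or 2 or palmitate replicates 1 or 3. Cxcl12, a chemokine, was above untreated with both acids (1.0 and 1.29) and 0.29 apart without passing. Among interferon-stimulated genes 4 of 12 were higher and 0 lower (median 0.02, -0.27 in the series matrix; 4 with palmitate replicate 3 alone, 1 in the series matrix): Rsad2, the antiviral viperin, at -3.05, -2.75 and -2.55 with oleate and -1.0, -0.93 and -0.85 with palmitate (1.85 ± 0.12), and Isg15, Oas1a and Bst2 by 0.66, 0.53 and 0.53.

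Most p53 targets tested were higher with palmitate. Of 15 p53 targets 9 were higher and 0 lower (median 0.61, 0.32 in the series matrix; 8 with spike-in scaling, 6 higher and 1 lower with palmitate replicate 3 alone, 1 in the series matrix). Phlda3, an inhibitor of Akt, was at 0.18, 0.15 and 0.16 with oleate and 1.15, 1.26 and 1.19 with palmitate (1.04 ± 0.06). Cdkn1a, the cell cycle inhibitor p21, was at 3.26, 3.25 and 3.38 against 4.20, 4.30 and 4.17 (0.93 ± 0.08). Trp53inp1 had a difference of 0.92, which was 0.84 and not called as a median over its probes, Tnfrsf10b, the TRAIL death receptor, of 0.85, and Fas of 1.42 ± 0.38, lost without untreated replicate 3 or any of the 6 oleate and palmitate arrays (1.07 to 1.66).

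Of 17 regulators of apoptosis 6 were higher, 0 lower and 11 did not pass (median 0.17, -0.12 in the series matrix; 4 higher with palmitate replicate 3 alone, 2 in the series matrix). Casp4, the inflammatory caspase also known as caspase 11, was at -4.67, -4.37 and -4.07 with oleate and -1.71, -1.79 and -1.46 with palmitate (2.71 ± 0.27). Hrk, a BH3-only protein, was well above background on no oleate and all palmitate arrays and at least 1.98-fold higher (adjusted p = 0.0023; -5.63 and -4.0). The BH3 proteins Bid and Bbc3 were higher by 0.74 and 0.48. Bik, another of them, was at -1.11, -1.13 and -0.89 untreated, -1.78, -1.64 and -1.77 with oleate and -1.13, -1.04 and -1.06 with palmitate, so that its difference of 0.65 ± 0.08 came from the oleate side. The survival genes Bcl2 and Bcl2l1 differed by -0.06 and 0.16 and did not pass. Of the 17 regulators 35.3% passed, against 13.7% of all entries. Casp4 and Hrk did not pass the filter on dim entries through oleate, so their calls are a description. When all 6 arrays had to be well above background, 4 regulators were higher.

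Oxidative defence was mixed, with 8 of 18 NRF2 targets higher with palmitate and 2 lower (median 0.14, -0.15 in the series matrix). 4 were higher and 1 lower with palmitate replicate 3 alone, 0 in either direction in the series matrix, and 8 higher and 0 lower with spike-in scaling. The lower count was 1 without untreated replicate 1 or without any 1 of the 6 oleate and palmitate arrays. Abcc4, an export pump, was higher by 0.89 ± 0.09 and Hmox1, haem oxygenase, by 0.59 ± 0.06. Nqo1, a quinone reductase often read as the defining target, was lower: 1.93, 1.92 and 1.95 with oleate and 1.54, 1.58 and 1.51 with palmitate, -0.39 ± 0.05, which was -0.18 and not called with spike-in scaling. Of 21 lysosomal genes 9 were higher and 0 lower (median 0.14, -0.15 in the series matrix), but 3 without oleate replicate 2, 4 without oleate replicate 3, 5 without oleate replicate 1, palmitate replicate 2 or palmitate replicate 3, and 3 higher and 1 lower with palmitate replicate 3 alone and 1 in the series matrix. Lgals3, which marks damaged lysosomes, was at -2.62, -2.69 and -2.77 with oleate and 0.49, 0.28 and 0.29 with palmitate, higher by 3.05 ± 0.09, or 8.26-fold (adjusted p = 2.4e-06). Of 16 autophagy genes 3 were higher (Wipi1 by 0.49, Sqstm1 by 0.37, lost without oleate replicate 1 at 0.36, and Atg3 by 0.25, -0.04 in the series matrix) and 0 lower, with a median of -0.01 that was 0.20 with spike-in scaling. The share that passed was 18.8%, against 13.7% of all entries. 1 was higher with spike-in scaling, 1 with palmitate replicate 3 alone and 0 in the series matrix.

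Cell division genes were lower with palmitate when levels are taken relative to the 75th percentile. Of 22 tested 0 were higher and 15 lower, with a median of -0.29, against 0 lower with spike-in scaling (median -0.08), 0 in the series matrix (median -0.57) and 4 with palmitate replicate 3 alone. Without oleate replicate 1 they were 10 and without oleate replicate 2 they were 9. Birc5, survivin, was at 6.05, 6.03 and 5.99 with oleate and 5.46, 5.54 and 5.60 with palmitate (-0.49 ± 0.06). Both other probes tested were called, at -0.47 and -0.52, and the median over all its probes was 0.01. Ccnb2, cyclin B2, was at 5.29, 5.29 and 5.24 against 4.85, 4.93 and 4.89 (-0.38 ± 0.05). Kif20a and Nusap1, a mitotic kinesin and a spindle protein, were lower by 0.41 and 0.40 on the log2 scale, the first lost without oleate replicate 2 (-0.37), and Kif11, another kinesin, by 0.33. Against untreated cells 20 of the 22 were lower with palmitate and 0 with oleate. DNA replication genes differed less, with 3 of 22 lower, 0 higher and a median of -0.08 (0.13 with spike-in scaling). That is 13.6%, against 13.7% of all entries. The 3 were Fen1, Rrm2 and Cdc45, at -0.28, -0.25 and -0.24, and the count was 0 with spike-in scaling, in the series matrix, with palmitate replicate 3 alone, and without untreated replicate 3, oleate replicates 1 or 2, or palmitate replicates 1 or 2, and 1 without oleate replicate 3 or palmitate replicate 3.

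In energy metabolism outside fatty acids 11.8% of glycolysis genes and 0% of oxidative phosphorylation subunits passed, against 13.7% of all entries. Of 24 oxidative phosphorylation subunits 0 passed with limma in either direction (median -0.03, 0.18 with spike-in scaling). Of 17 glycolysis genes 2 were lower and 0 higher (median -0.13, 0.07 with spike-in scaling), Pfkfb3 at -0.45 and Ldhb at -0.22, and both calls were lost without any 1 oleate replicate, with spike-in scaling and in the series matrix. Of 16 immediate early genes 5 were higher and 0 lower (median 0.02, -0.25 in the series matrix), led by Myc at 0.82 ± 0.22, lost without untreated replicates 1 or 3, any oleate replicate, or palmitate replicates 1 or 2 (0.72 to 0.84), and Ier3 at 0.56 ± 0.08. 2 of the 16 were higher without palmitate replicate 1 or palmitate replicate 2, 3 without oleate replicates 2 or 3, 2 with palmitate replicate 3 alone and 0 in the series matrix.

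**Figure D4:**
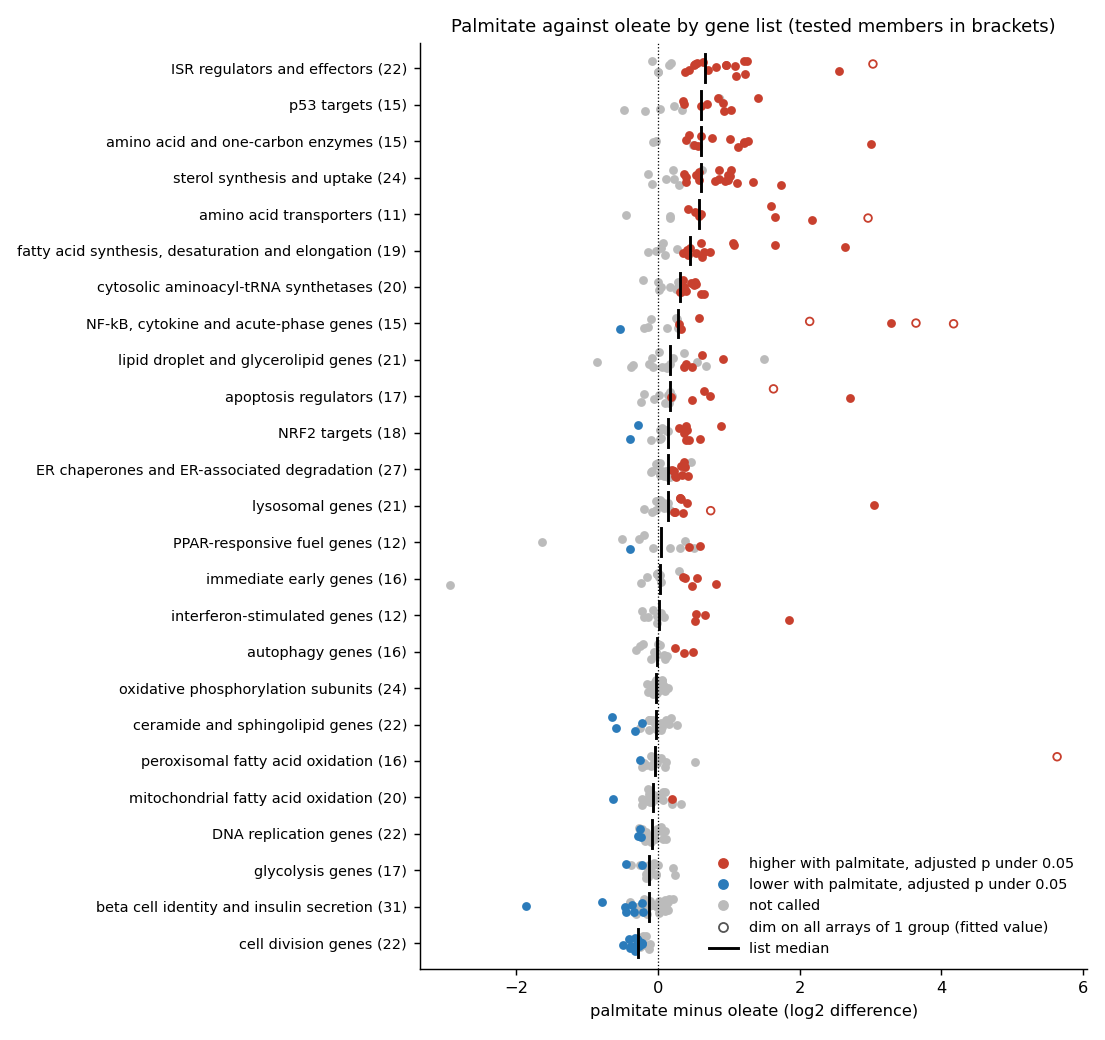
Difference of palmitate minus oleate (log2) for the tested members of the gene lists, 1 point per gene, red higher and blue lower with palmitate at an adjusted p under 0.05, grey not called, with the median of each list marked; open circles are members that were dim on all arrays of 1 group, whose fitted difference is no measured size. The medians run from 0.67 for the ISR genes and 0.61 for p53 targets to -0.29 for cell division genes, and the last, like those of the beta cell and glycolysis genes, moves towards or past 0 with spike-in scaling, to -0.08.

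Among the named genes, which leave out the muscle lists, those highest with palmitate were mostly dim or silent with oleate. Car6, a secreted carbonic anhydrase, led: -4.21, -4.58 and -4.55 with oleate, -4.73, -3.60 and -3.99 untreated and 1.29, 1.24 and 1.05 with palmitate, a difference of 5.64 ± 0.26 (adjusted p = 1.7e-05). Ostn, the peptide hormone osteocrin, known from bone and muscle, was at -3.31, -3.19 and -3.33 against 0.68, 0.51 and 0.39 (3.80 ± 0.14), with all palmitate arrays above all others, replicate 3 with its low skeletal muscle genes included. Car3, a carbonic anhydrase abundant in muscle and fat, was at least 7.52-fold higher (adjusted p = 0.0037; mean levels of -6.63 and -2.14), at -2.34, -2.03 and -2.07 on the palmitate arrays. Akr1b7, an aldo-keto reductase, was at least 7.40-fold higher (adjusted p = 8.1e-05; -6.43 and -2.17), Slco1b2, an organic anion transporter of liver, at least 2.25-fold (6.5e-05; -6.78 and -3.88) and Ppp1r16b, a phosphatase subunit, at least 1.44-fold (0.00042; -6.98 and -4.53). Soat2, which esterifies cholesterol, was at -3.37, -3.62 and -3.58 with oleate and -0.62, -0.81 and -0.75 with palmitate (2.80 ± 0.11), and Anxa10, an annexin, was higher by 2.83 ± 0.09. Col14a1, a collagen, was higher by 2.71 ± 0.45, while its second probe read 0.68 and was not called (adjusted p = 0.053). Col14a1 did not pass the filter on dim entries through oleate, so its call is a description. Most of these genes were also higher with AP20187 at 48 h than in mock Fv2E-PERK cells: Car6 by 7.87, Acox2 by 8.19, Slco1b2 by 7.67, Lgals3 by 7.10, Anxa10 by 6.67 and Soat2 by 5.66. Scd1 was the exception among the 20 named higher genes that were tested there, at -0.91. Of all entries there 27.2% were higher and 34.6% lower, and slide and AP20187 cannot be told apart.

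Among the named genes, those lowest with palmitate differed by smaller folds, and for some the untreated level counts. Only the lower genes had to be well above background in both mock-treated wild-type samples. Rnf145, a sterol-responsive ubiquitin ligase of the ER, was at 2.31, 2.33 and 2.31 untreated, 2.89, 2.89 and 2.80 with oleate and 1.79, 1.72 and 1.61 with palmitate. Oleate lay above and palmitate below every untreated array (0.54 ± 0.06 and -0.61 ± 0.06), and palmitate was 2.22-fold lower than oleate (-1.15 ± 0.06, adjusted p = 2.5e-05). Pigz, a mannosyltransferase of lipid anchors, repeated this order with -0.51, -0.46 and -0.50 untreated, 0.16, 0.14 and 0.25 with oleate and -0.92, -0.72 and -0.64 with palmitate (-0.94 ± 0.07), and so did Apold1, an apolipoprotein L domain gene, at -0.92 ± 0.05 (oleate 0.32 above and palmitate -0.61 from untreated). Gpat2, a glycerol phosphate acyltransferase, was lower by 0.93 ± 0.08, all of it on the palmitate side (-1.07 from untreated, oleate -0.13).

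Of the other named lower genes, Ptgds, prostaglandin D synthase, was at -2.24, -1.55 and -1.56 with oleate and -2.93, -2.88 and -2.90 with palmitate (-1.12 ± 0.18). Adamts2, a procollagen protease, Adcy5, an adenylyl cyclase, Adam32, of the ADAM metalloprotease family, and T2 had differences of -1.22, -1.20, -1.19 and -1.14. The first 3 were -0.63, -0.52 and -0.69 and not called as medians over their probes, although the second tested probe of Adcy5 was called at -0.77 (adjusted p = 0.046). With palmitate, Adcy5, Adam32, T2, Adamts2 and Dapl1 lay near the mock-treated wild-type cells of the other experiment, as the heart genes did. Adcy5 was at -4.04, -3.84 and -3.83 against -3.95 and -4.06, and Adamts2 at -4.11, -4.08 and -4.73 against -3.80 and -4.06. Pigz, at -1.37 and -1.18 in those mock cells, lay below its palmitate levels there. Ptgds, at -1.66 and -1.73 there, lay near its oleate levels instead. The part of the heart transcripts in the lower genes was not tested. Ascl2, a bHLH factor, Ecel1, an endopeptidase, Dapl1 and Upk3a had differences of -1.09, -1.06, -0.92 and -0.94, Sv2b, a synaptic vesicle protein, of -0.99, which was -0.78 and not called with spike-in scaling, and Il4 of -1.0, with a level of -3.23 and -3.38 in the mock-treated wild-type cells, below all 9 arrays here. Tmsb15l, at -0.97, has near-identical copies that its probe may share. Ccr10, Cpne6 and Vmn1r48 were well above background on no palmitate array and at least 1.63-, 1.66- and 1.98-fold lower (adjusted p = 0.016, 0.017 and 0.031; mean levels with oleate and palmitate of -4.22 and -5.25, -4.38 and -5.34, and -4.02 and -5.39). These calls were lost without oleate replicates 1 or 2 for Ccr10, without oleate replicate 1 or palmitate replicates 1 or 2 for Cpne6 (-0.18 with normexp and quantile normalization together), and without untreated replicate 3, any oleate replicate or palmitate replicates 1 or 3 for Vmn1r48.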

How the data were processed

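RNA of 21 samples was read on one-colour Agilent arrays (Cy3, a low-input labelling kit, per the labels' protocols). The deposited intensity values are the processed signals of Agilent Feature Extraction 10.7.1.1, per the file headers. The deposited series matrix holds log2 values by the authors; they equal the log2 scanner signals shifted by 1 constant per array and 1 baseline per probe, so their direction is plain while the origin of both shifts is unknown (column medians of the fatty acid arrays -0.27 to 0.36). Spots marked as outliers and control spots were left out, spots of a probe averaged, log2 taken and each array's 75th percentile subtracted, with 1 probe per gene symbol; 29099 of 55681 probes carried no symbol. Entries were kept where every array of some fatty acid group read well above background, and were fitted with limma 3.58.1 (R 4.3.3) on 9 arrays, with Benjamini-Hochberg adjustment over all 21281 and a threshold of 0.05. "At least" folds set the brighter group's mean against the dimmer group's mean of the lowest signal well above background. Such genes did not pass the filter on dim entries through the dimmer group, so their calls are a description. Named genes were the 20 largest differences in each direction among calls without overlap of the arrays, well above background on the higher group, of 1 sign with palmitate replicate 3 and with replicates 1 and 2, outside marker lists other than beta cell and, for lower genes, well above background in both wild-type mock samples; unnamed and predicted entries were not named. In each pathway list up to 5 called members with the largest differences were named, others by value. Members and lists were chosen with earlier results of these data known. Promoters are RefSeq's, build GRCm38.p6. The fit was tested on simulated data. Alternatives covered normalization, dim-probe filter, probe choice, arrays fitted, blocks and left-out arrays. 1 pair of compounds was compared. Deviations of same-numbered arrays correlated at -0.027 to 0.035, so numbers were not taken as pairs. Some genes of the lists count in the list totals and are not reported here by name.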

Additional observations from a re-analysis of the deposited data

How the results depend on the processing

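The main fit gave 2926 calls, 2895 outside the muscle lists and 54.4% higher with palmitate. Spike-in scaling gave 1193 and 1159 calls with 93.3% higher, the series matrix 409 and 379 with 35.9%, testing dim probes too 1398 and 1370 with 59.4% (more entries tested), and palmitate replicate 3 alone 1406 and 1360 (fewer arrays). The share higher was 52% after quantile normalization, 52.2% with normexp background correction and quantile normalization together, and 57.4% with slide as a block, which here equals leaving out palmitate replicate 3. Leaving out 1 array gave 1398 to 3155 calls, 1371 to 3122 outside the muscle lists and 50.8 to 61.7% higher. The replicate block gave 2451 calls, 2419 outside the muscle lists and 53.4% higher; 12 of 220 genes lost their call with it, and same-numbered arrays share only a number.

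List medians moved with scaling, first with spike-ins and then in the series matrix: ISR 0.87 and 0.35, amino acid transporters 0.79 and 0.29, amino acid enzymes 0.81 and 0.32, tRNA synthetases 0.52 and 0.03, ER folding 0.34 and -0.15, sterol 0.81 and 0.32, fatty acid synthesis 0.67 and 0.17, mitochondrial oxidation 0.13 and -0.36, peroxisomal oxidation 0.16 and -0.33, PPAR genes 0.26 and -0.24, lipid droplets 0.34 and -0.07, sphingolipids 0.17 and -0.32, beta cell 0.07 and -0.42, NF-kB 0.50 and -0.01, NRF2 0.34 and -0.15, p53 0.82 and 0.32, cell division -0.08 and -0.57, DNA replication 0.13 and -0.36, apoptosis 0.37 and -0.12, lysosome 0.34 and -0.15, autophagy 0.20 and -0.30, glycolysis 0.07 and -0.42, oxidative phosphorylation 0.18 and -0.32, immediate early 0.23 and -0.25, interferon-stimulated 0.23 and -0.27. Normexp with quantile normalization gave 0.55 for the ISR, 0.12 for lipid droplets and 0.33 for p53, and asking for all 6 arrays above background gave 0.37 for p53. The slide block gave 0.34 for tRNA synthetases, -0.09 for peroxisomal oxidation, -0.18 for PPAR genes, 0.19 for lysosome, 0.07 for autophagy and 0.07 for immediate early genes. Palmitate replicate 3 alone gave 0.34 for tRNA synthetases, 0.64 for sterol, 0.55 for fatty acid synthesis, -0.22 for cell division, -0.25 for glycolysis, 0.04 for oxidative phosphorylation and -0.02 for interferon-stimulated genes. Without 1 array, medians ran from 0.58 to 0.66 for amino acid enzymes, 0.32 to 0.34 for tRNA synthetases, -0.09 to -0.02 for peroxisomal oxidation, -0.18 to 0.09 for PPAR genes, 0.12 to 0.19 for lysosome, -0.06 to 0.07 for autophagy, 0.02 to 0.07 for immediate early and 0.00 to 0.06 for interferon-stimulated genes.

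In the series matrix Atg3 (-0.04), Cpt1a (-0.07), Dnajb9 (-0.06), Hspa5 (-0.03) and Il1b (-0.01) changed sign; so did Nkx6-1 with spike-ins (0.00) and Birc5 over probes (0.01). The median of all entries moved by -0.29 in the series matrix and by 0.21 with spike-ins. Beyond these shifts, the cause was not tested. Signals near background limit the genes given with "at least" folds.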
